A study of Homo sapiens with 6 samples.

Results

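The matrix metalloproteinases and tissue inhibitors of metalloproteinases examined here were 10 genes, the 7 proteinase genes MMP1, MMP3, MMP7, MMP10, MMP13, MMP14 and MMP15 and the 3 inhibitor genes TIMP1, TIMP2 and TIMP3. A gene was read from the array feature whose annotation gave that symbol alone, and 9 of the 10 had such a feature, 1 each, among 22465 genes named in this way. TIMP2 had none, because its feature is also annotated to CEP295NL, and the shared feature is given separately below. The rule would have taken the feature with the highest mean over the 6 arrays where a gene had several. Features were thus selected on their mean signal over all arrays, with no use of the difference between the groups, while the 10 genes themselves were proposed with earlier results of these data known.

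Matrix metalloproteinases are zinc-dependent endopeptidases that cut collagens and other proteins of the extracellular matrix. They are made as zymogens held inactive by a propeptide, and either are secreted or, in the membrane-type enzymes, stay anchored to the cell surface. The TIMP proteins bind the active site of these enzymes and block it. In the liver they are best known for the turnover of scar collagen, and in carcinoma cells for invasion through the matrix.

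The study set cells labelled HepG2, the name of an established liver cancer line, carrying a short hairpin RNA against SND1 (named shSND1-#1) against cells of the same label carrying the pLKO vector. SND1 encodes a protein that binds and cleaves RNA and also acts as a coactivator of transcription. Total RNA of 3 samples per group was hybridised to Affymetrix arrays. Both groups had received 5-Fu (fluorouracil, an inhibitor of thymidylate synthase) at 6 µg/mL for 48 h, so the comparison is made under the drug and gives no effect of the drug itself. Both groups were stable lines and all knockdown titles name 1 hairpin, so loss of SND1, other targets of this hairpin and differences between the lines cannot be told apart. Separate cultures are not stated in the labels for the 3 samples of a group, so each p-value is measured against a spread between samples that may be technical. In such bulk RNA, fewer cells that express a gene and less RNA per cell cannot be told apart.

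The values are log2 signals, on which a difference of -1 is a halving, and the change of a gene is always knockdown minus vector. Array medians over 67528 transcript clusters, the array's unit for a transcribed locus, lay between 3.58 and 3.73. The feature annotated to SND1 and its intronic transcript SND1-IT1 had signals of 7.44, 7.25 and 7.16 in vector cells and 5.82, 5.69 and 5.88 in knockdown cells, which left 35.6% of the vector signal. Of 12 measured hepatocyte markers, 8 gave signals under the 25th percentile of named genes, with ALB (albumin) at a mean signal of 1.83 and AFP (alpha-fetoprotein) at 1.503. The apolipoprotein gene APOA2 went the other way, as the 1 hepatocyte marker above the 75th percentile (95.9th). SERPINA1 lay at the 65.3th percentile and APOA1 at the 57.5th. The mean log2 signal of the 12 hepatocyte markers was 3.18 to 3.23 on the vector arrays and 3.12 to 3.21 on the knockdown arrays. At limma's unadjusted p, 1 of the 12 was lower and 0 higher. Of all named genes, 7.34% were lower and 4.85% higher at that p (under 0.05). Of 12 markers of digestive epithelium, 10 lay above the 75th percentile, and CDX1 (72.7th) and TFF3 (43.4th) did not. The mean log2 signal of the 12 was 8.20 to 8.31 on the vector arrays and 8.003 to 8.10 on the knockdown arrays. With limma's p under 0.05 before adjustment, 7 of the 12 were lower and 0 higher. Of the 7, 1 fell at the adjusted threshold (LGALS4, below). At an adjusted p under 0.05, 0.138% of all named genes fell. Fibroblasts are a major source of metalloproteinases in tissue, and 11 measured fibroblast and stroma markers had a mean log2 signal of 3.42 to 3.48 on the vector and 3.44 to 3.50 on the knockdown arrays. Of these, 0 were past limma's unadjusted p of 0.05 in either direction, and 5 lay below the 25th percentile, among them the collagen-binding proteoglycan gene LUM at a mean signal of 1.44 and FAP at 1.48. Above the 75th percentile lay 1, ACTA2 at 6.55, and COL1A1 had 5.26 (58.6th percentile). For the 12 leukocyte and endothelial markers the mean log2 signal was 3.52 to 3.59 on the vector and 3.48 to 3.61 on the knockdown arrays, with the pan-leukocyte gene PTPRC at 1.55. Of these 12, 1 was lower and 0 higher at limma's unadjusted p, and CD68, the lysosomal macrophage marker, had a mean signal of 8.17 and a change of -0.55 (limma adjusted p = 0.0831). Mostly dim hepatocyte and mostly bright digestive epithelium markers go against the HepG2 label, and the origin of the cells was not tested. What the shift of the digestive epithelium markers contributes to the results below was not tested.

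MMP1 fell in the knockdown cells, and it was the 1 member of 9 that passed the test. MMP1 encodes the interstitial collagenase, which makes the first cut in fibrillar collagen. Its log2 signals were 8.47, 8.39 and 8.23 on the vector arrays and 7.05, 7.10 and 7.05 on the knockdown arrays. The groups did not overlap, and the lowest vector array lay more than 1 log2 unit above the highest knockdown array. MMP1 thus changed by -1.29 (SE 0.07, with a limma adjusted p = 0.00273 taken over all named genes), from 8.36 ± 0.13 to 7.07 ± 0.03 (SD, n = 3 each). This left 40.8% of the vector signal (95% interval 36.3 to 45.7). At an adjusted p under 0.05, 0.138% of all named genes fell and 0.0312% rose. The exact two-sided permutation p for MMP1 was 0.1, the smallest that 3 arrays against 3 allow. Leaving out any 1 array kept the change between -1.36 and -1.24, and without knockdown replicate 1 the limma adjusted p was 0.0678, above the threshold of 0.05.

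**Figure D1:**
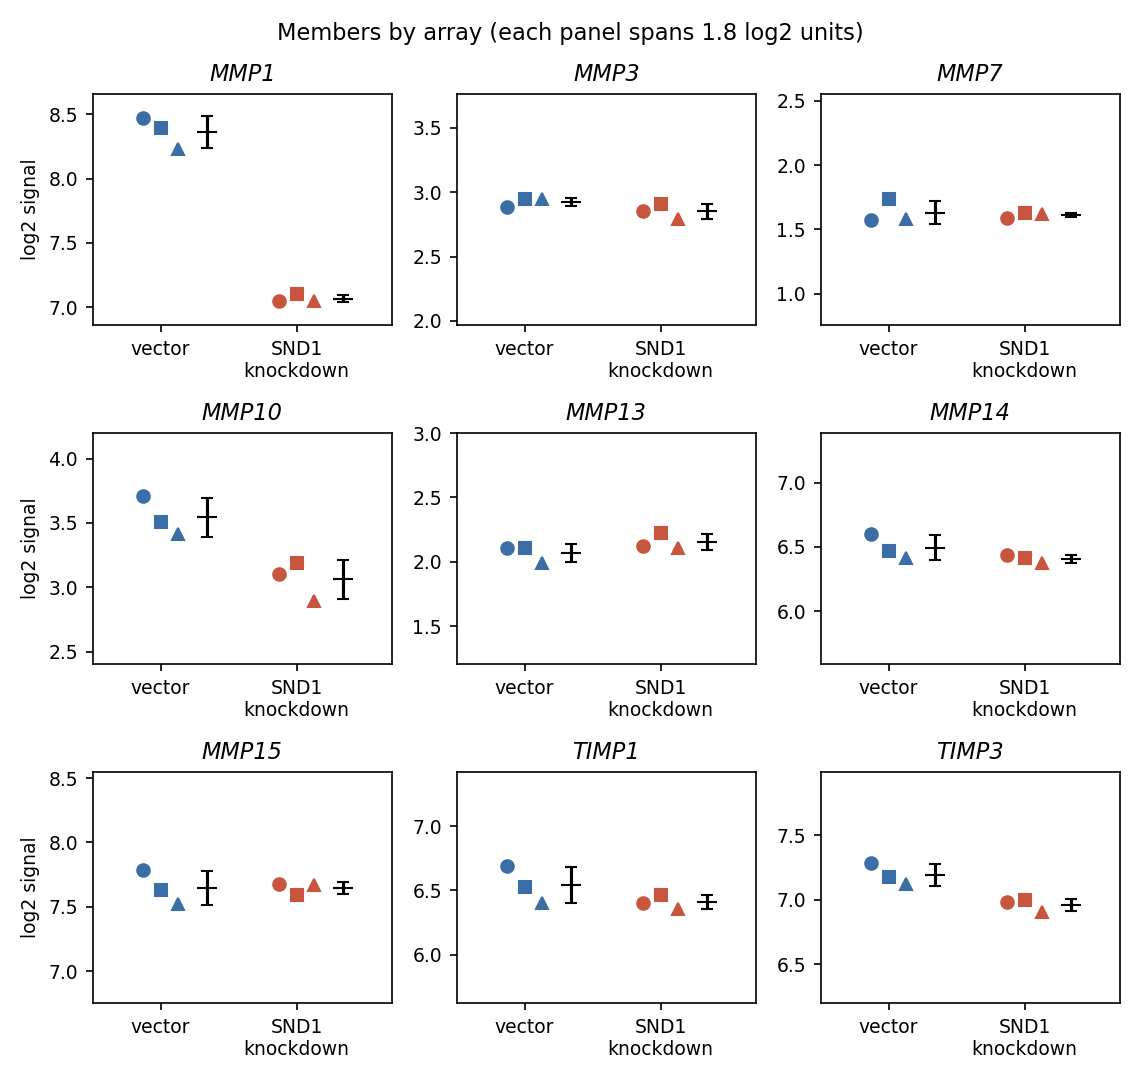
Log2 signal (vertical axis, each panel spanning the same 1.8 units) of the 9 measured members on each array, with vector arrays in blue and SND1 knockdown arrays in red, and circles, squares and triangles for replicates 1, 2 and 3. Black bars give the mean and SD of 3 arrays, and the groups stand apart for MMP1 (8.36 against 7.07), MMP10 (3.54 against 3.06) and TIMP3 (7.196 against 6.96) and overlap in the other panels.

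The other collagenase among the members, MMP13, cuts type II collagen with preference and had dim signals. Its values were 2.11, 2.11 and 1.99 in vector cells and 2.12, 2.22 and 2.11 in knockdown cells, with overlapping groups. The change was 0.08 (SE 0.06, 95% interval -0.06 to 0.22). These signals lie at the 12.2th percentile of named genes. The table holds no detection calls, so whether a signal that low stands above background is not known, and changes of dim genes are understated on this scale. A percentile here places a signal on the arrays only, because the response of probes to a given amount of transcript varies, and it gives no order of abundance.

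The stromelysins MMP3 and MMP10 are close relatives that cut proteoglycans, laminin and fibronectin and can activate other pro-metalloproteinases, MMP1 among them. MMP10 had signals of 3.71, 3.51 and 3.42 in vector cells and 3.10, 3.19 and 2.89 in knockdown cells. Each knockdown value was under the lowest vector value, although the spread within each group was wide (0.15 SD in both). The change was -0.48 (SE 0.10, 95% interval -0.71 to -0.25), and MMP10 did not pass the test (limma adjusted p = 0.128). It had the 44th most negative change among the 22465 named genes. Without vector replicate 1, which holds the highest MMP10 value, the change was -0.40. MMP3 had 2.88, 2.94 and 2.94 in vector cells and 2.86, 2.91 and 2.79 in knockdown cells. The groups overlapped, and the change was -0.07 (SE 0.06, 95% interval -0.20 to 0.06). The signal of MMP3 lay at the 21.7th percentile of named genes and that of MMP10 at the 26.3th.

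MMP7 encodes matrilysin, a short secreted enzyme of glandular epithelium that lacks the hemopexin domain. Its signals were 1.58, 1.74 and 1.58 in vector cells and 1.59, 1.62 and 1.62 in knockdown cells, at the 5.24th percentile of named genes. The knockdown arrays lay within the range of the vector arrays, and the change was -0.02 (SE 0.06, 95% interval -0.16 to 0.12).

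The membrane-type enzymes MMP14 and MMP15 are anchored by a transmembrane segment and act at the cell surface, where MMP14 activates pro-MMP2. MMP14 had signals of 6.60, 6.47 and 6.41 in vector cells and 6.44, 6.41 and 6.38 in knockdown cells. The groups overlapped, and the change was -0.08 (SE 0.06, 95% interval -0.23 to 0.06). MMP15 had 7.78, 7.63 and 7.52 in vector cells and 7.68, 7.59 and 7.67 in knockdown cells, so all knockdown arrays lay within the range of the vector arrays. Its change was 0.00 (SE 0.08, 95% interval -0.17 to 0.18), and its sign turned with arrays centred on their medians (-0.05). Both genes gave clear signals, at the 82.2th and the 95.01th percentile of named genes, and neither interval reaches a change of the size of that of MMP1.

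Among the inhibitors, TIMP3 is bound to the extracellular matrix and also blocks ADAM17. It had signals of 7.29, 7.18 and 7.12 in vector cells and 6.98, 7.00 and 6.91 in knockdown cells. The groups did not overlap, but the gap between them was small. The change of -0.23 (SE 0.06, 95% interval -0.38 to -0.09) did not pass the test (limma adjusted p = 0.196), and it was -0.19 without vector replicate 1. TIMP1, a secreted inhibitor of most soluble metalloproteinases, had 6.69, 6.53 and 6.41 in vector cells and 6.402, 6.47 and 6.36 in knockdown cells. These groups overlapped, and the change was -0.13 (SE 0.08, 95% interval -0.32 to 0.05). TIMP2, which inhibits MMP2 and also takes part in its activation by MMP14, could be read only from the feature it shares with CEP295NL. That feature had 6.88, 6.73 and 6.71 in vector cells and 6.54, 6.50 and 6.56 in knockdown cells. The groups did not overlap, and the feature's difference was -0.24 (SE 0.07, with a limma adjusted p = 0.411 taken over all transcript clusters). The signal cannot be assigned to either gene.

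Over the 9 measured members, 7 changes were negative, 3 had groups that did not overlap (MMP1, MMP10 and TIMP3), and 3 were lower and 0 higher with limma's p under 0.05 before adjustment. Of all named genes, 11.6% had non-overlapping groups with lower and 6.33% with higher knockdown values (17.9% in either direction). At that unadjusted p, 7.34% were lower and 4.85% higher (12.2% in all), and at the adjusted threshold 0.169% were past it in either direction. All 3 non-overlapping members were lower, and the members were chosen with results known, so these counts are a description. The median change of the 9 was -0.08, against 0.01 over all named genes. Vector replicate 1 held the highest of the 6 values for 6 of the 9 members, MMP1, MMP10, MMP14, MMP15, TIMP1 and TIMP3. It held the highest value for 41.2% of all named genes above the median level and for 27.3% of all named genes. That array had the lowest array median, 3.58. Without it the changes were -1.24 for MMP1, -0.06 for TIMP1 and -0.03 for MMP14.

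Of the members, MMP7, MMP10, MMP1, MMP3 and MMP13 (5 of 10) lie in a cluster of metalloproteinase genes on chromosome 11. In RefSeq's order the measured genes of the cluster are MMP7, MMP20, MMP27, MMP8, MMP10, the pseudogene WTAPP1, MMP1, MMP3, MMP12 and MMP13. MMP1 had the change of -1.29 and MMP10 that of -0.48, and the other 8 measured genes of this stretch had changes between -0.07 and 0.08. WTAPP1, which lies between MMP10 and MMP1, had 3.90, 3.90 and 3.93 in vector cells and 3.80, 3.85 and 4.02 in knockdown cells, with a change of -0.02 (SE 0.07). MMP12, the macrophage elastase, had a change of -0.07 (SE 0.06) at a dim signal, 2.17 in vector and 2.10 in knockdown cells. The differences within the cluster were set against each other on each array. The signal of MMP1 minus that of MMP10 was 4.76, 4.88 and 4.81 on the vector arrays and 3.95, 3.91 and 4.16 on the knockdown arrays. The groups did not overlap, and the 2 changes differed by -0.81 (exact two-sided permutation p = 0.1, the smallest possible). MMP10 minus MMP3 was 0.83, 0.56 and 0.47 on the vector arrays and 0.25, 0.29 and 0.10 on the knockdown arrays, a difference of -0.41 with the same p. Such differences are formed from the values already given for these genes, so their p-values add no separate evidence. A change of a dim signal is compressed, so they also do not compare changes of the transcripts.

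**Figure D2:**
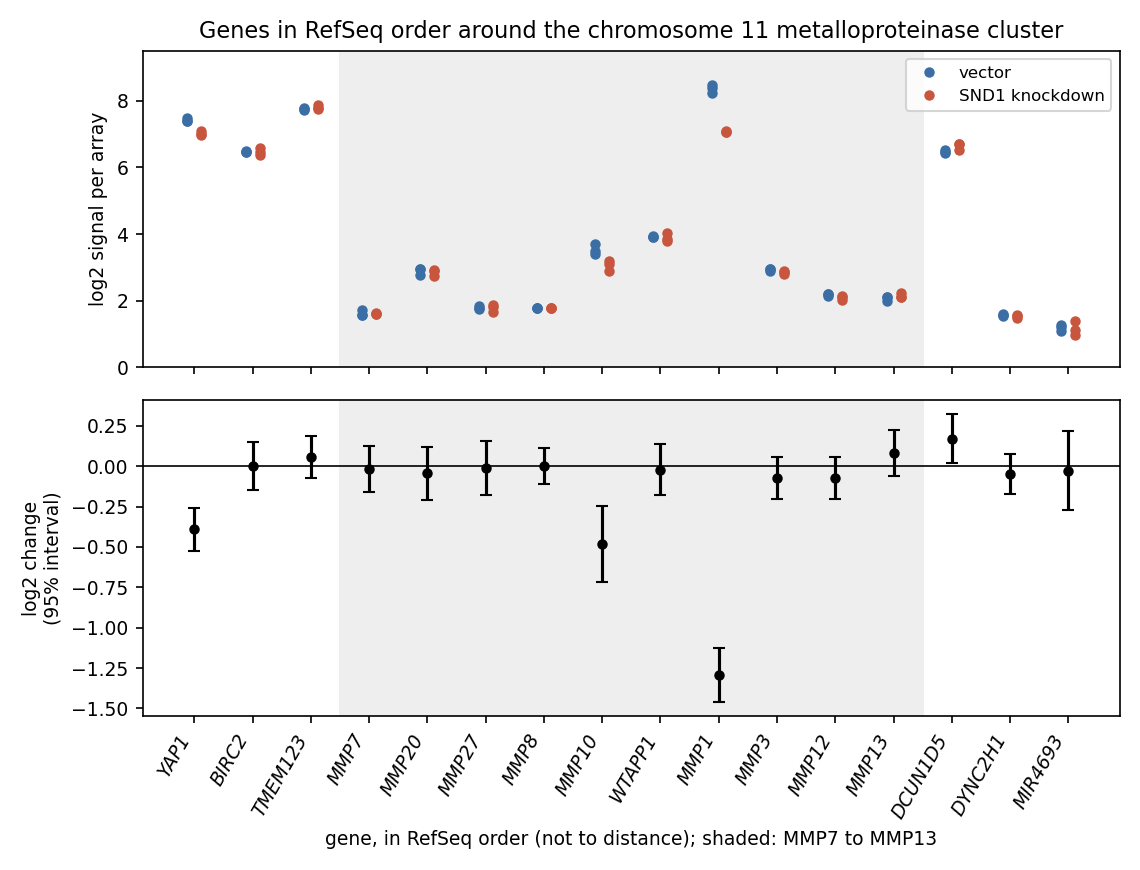
Log2 signal on each array (upper panel, blue for vector, red for SND1 knockdown) and log2 change with its 95% interval from limma (lower panel) for 16 measured genes in RefSeq order along chromosome 11, not drawn to distance. Inside the shaded cluster the intervals of MMP1 (-1.46 to -1.13) and MMP10 (-0.71 to -0.25) lie below 0 and the others hold 0.

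Of the 3 measured genes before the cluster, YAP1, the transcriptional coactivator of the Hippo pathway, went from 7.42 ± 0.06 to 7.03 ± 0.05 (SD, n = 3 each). This difference of -0.39 did not pass the test (limma adjusted p = 0.0678). BIRC2, an inhibitor of apoptosis, and TMEM123, which lie between YAP1 and MMP7, had changes of 0.00 and 0.06. After the cluster, DCUN1D5, DYNC2H1 and MIR4693 had changes of 0.17, -0.05 and -0.03, and none passed.

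RefSeq sequences upstream of the start were at hand for 6 of the 10 members, MMP7, MMP10, MMP14, MMP15, TIMP1 and TIMP3. The 250 bases before the start were searched on both strands for TGAGTCA (the AP-1 element), TATAAA (the TATA box), GGGCGG (the GC box) and AGGAAG (an ETS element), and no 2 matches overlapped. The sequences of MMP10 and MMP7 are shown because both genes lie in the cluster and differ in whether their groups stood apart. Capitals mark the matches, the build is GRCh38.p14, and each is written 5′ to 3′ on the strand of its gene (chr11:102780629-102780878, minus strand for MMP10 and chr11:102530748-102530997, minus strand for MMP7).
MMP10: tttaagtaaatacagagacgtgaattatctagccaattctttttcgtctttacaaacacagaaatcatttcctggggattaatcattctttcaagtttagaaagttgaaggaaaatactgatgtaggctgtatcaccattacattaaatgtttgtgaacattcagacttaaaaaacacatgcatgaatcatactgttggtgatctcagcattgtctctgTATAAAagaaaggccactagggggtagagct
MMP7: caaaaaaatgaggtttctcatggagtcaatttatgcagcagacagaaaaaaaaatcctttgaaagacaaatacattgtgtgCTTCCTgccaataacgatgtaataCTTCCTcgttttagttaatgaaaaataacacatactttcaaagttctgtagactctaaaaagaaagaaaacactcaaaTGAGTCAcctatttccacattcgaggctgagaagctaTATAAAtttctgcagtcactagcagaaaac
Both hold a TATA box close to the start, 31 to 26 bases before it in MMP10 and 30 to 25 in MMP7. MMP7 also holds an AP-1 element 67 to 61 bases before the start and 2 ETS elements on the opposite strand, while the letters of these elements do not occur in this window of MMP10. Of all 35116 RefSeq promoters searched in the same way, 10.7% held the TATA box, 4.2% the AP-1 element and 28.7% the ETS element.

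TIMP3 and TIMP1 are shown as the inhibitors with and without non-overlapping groups (chr22:32801455-32801704, plus strand for TIMP3 and chrX:47582186-47582435, plus strand for TIMP1), with the same marks.
TIMP3: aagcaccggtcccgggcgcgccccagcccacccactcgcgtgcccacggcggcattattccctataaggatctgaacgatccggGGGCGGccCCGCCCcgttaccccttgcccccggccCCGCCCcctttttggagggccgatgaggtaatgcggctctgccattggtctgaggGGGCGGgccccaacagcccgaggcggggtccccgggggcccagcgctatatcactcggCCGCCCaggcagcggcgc
TIMP1: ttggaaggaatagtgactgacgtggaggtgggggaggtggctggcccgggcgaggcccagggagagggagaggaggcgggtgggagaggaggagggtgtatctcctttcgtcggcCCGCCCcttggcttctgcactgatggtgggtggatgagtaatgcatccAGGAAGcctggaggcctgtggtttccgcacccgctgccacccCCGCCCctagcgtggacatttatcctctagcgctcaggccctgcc
Neither holds the TATA box searched for, TIMP3 holds 5 GC boxes and TIMP1 holds 2 GC boxes and 1 ETS element. The GC box occurred in 42.6% of all promoters. The G and C share was 72.4% in TIMP3 and 64.8% in TIMP1, but 34.4% in MMP10 and 33.6% in MMP7, against a median of 58% over all promoters. MMP14 and MMP15, the membrane-type enzymes, held 1 and 5 GC boxes and no TATA box. These matches describe the letters in a window and say nothing of a factor's binding.

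Beyond the 10, 18 further genes of the family were looked for, and 17 had a feature of their own. None of the 17 passed the test, 1 was higher and 0 were lower with limma's unadjusted p under 0.05 (4.85% and 7.34% of all named genes), and their median change was 0.01, as over all named genes. The higher one was RECK, a membrane-anchored inhibitor of MMP9 and MMP14, with signals of 3.93, 3.83 and 3.92 in vector cells and 4.08, 4.08 and 4.16 in knockdown cells. Its groups did not overlap, and the difference was 0.22 (SE 0.06, limma adjusted p = 0.19). The gelatinase genes MMP2 and MMP9 had changes of 0.05 (SE 0.07) and 0.15 (SE 0.10), and TIMP4, an inhibitor best known from heart and brain, had -0.12 (SE 0.07). MMP19 had -0.11 (SE 0.06) and MMP11, a further stromelysin, 0.10 (SE 0.07). The membrane-type genes MMP16, MMP17, MMP24 and MMP25 had changes of -0.02, 0.09, 0.08 and 0.01. MMP20, the enamel enzyme, MMP26 and MMP27 had -0.04, 0.00 and -0.01, and MMP21 and MMP28 had 0.01 and 0.03. MMP23B could be read only from a feature it shares with MMP23A, which had a change of 0.08 (SE 0.09).

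**Figure D3:**
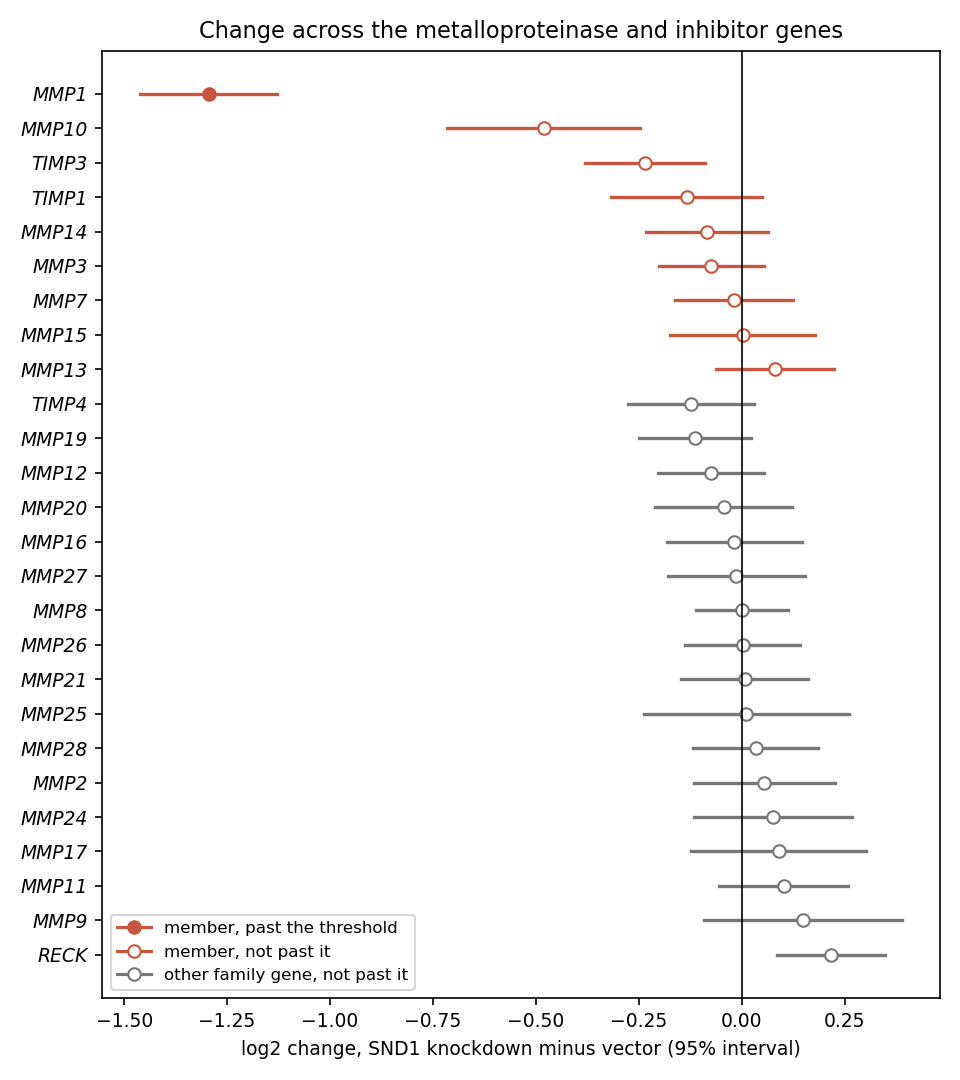
Log2 change, knockdown minus vector, with its 95% interval from limma for the 9 measured members (red) and 17 other family genes (grey), ordered by change within each set. The filled point is MMP1 (-1.29), the gene past an adjusted p of 0.05, and the remaining points lie between -0.48 (MMP10) and 0.22 (RECK).

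Metalloproteinase zymogens are activated by serine proteinases, among others. Of 15 measured activators and related genes none passed the test. At limma's unadjusted p 4 were lower and 0 higher (7.34% and 4.85% of all named genes). ST14, the membrane serine proteinase matriptase, had 7.12 ± 0.06 against 6.84 ± 0.03 (SD, n = 3 each), a change of -0.28 (limma adjusted p = 0.123). PLAU, the urokinase that makes plasmin from plasminogen, had 5.06, 5.08 and 5.06 against 4.89, 4.88 and 4.89, a change of -0.18 (limma adjusted p = 0.206). Both had groups that did not overlap, as had 6 of the 15 (17.9% of all named genes in either direction). Of 9 measured serpins and other proteinase inhibitors none passed, with 4 lower and 0 higher at the unadjusted level. SERPINA1, the antitrypsin of plasma, had -0.43 (SE 0.07; limma adjusted p = 0.0831), and SPINT2, an inhibitor of matriptase and related enzymes, had -0.22 (SE 0.06; limma adjusted p = 0.217). Of 19 measured genes of the related ADAM and ADAMTS families none passed, with 0 lower and 1 higher. The higher one was ADAM19, at 0.28 (SE 0.06, limma adjusted p = 0.116), and ADAM15 had -0.11 (SE 0.06).

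Of 22 measured transcription factors that act on metalloproteinase promoters none passed. At limma's unadjusted p 8 of them were lower and 0 higher (7.34% and 4.85% of all named genes). The median change of the 22 was -0.10, against 0.01 over all named genes, and 13 of the 22 lay above the 75th percentile of signal. JUNB, an AP-1 subunit, had 7.18, 7.06 and 7.04 in vector cells and 6.76, 6.74 and 6.77 in knockdown cells, a change of -0.34 (limma adjusted p = 0.0831). ELF3, an epithelial ETS factor, had 6.47, 6.41 and 6.398 against 6.17, 6.23 and 6.12, a change of -0.25 (limma adjusted p = 0.138). In neither gene did the groups overlap. Groups stood apart in 12 of the 22, these included (17.9% of all named genes in either direction). Vector replicate 1 held the highest value of JUNB and of ELF3, as for 41.2% of named genes above the median level. What signal level or that array contributes to these counts was not tested.

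Of 24 measured ligands, receptors and other signals that induce metalloproteinases, 1 fell and 0 rose (0.138% and 0.0312% of all named genes). At the unadjusted level 4 were lower and 0 higher (7.34% and 4.85% of all named genes). The gene that fell was TGFBR2, which encodes the ligand-binding TGF-beta receptor kinase (-0.65, SE 0.06, limma adjusted p = 0.0243). Of 23 measured substrates and binding partners 2 fell and 0 rose, with 3 lower and 0 higher at the unadjusted level, and the median change was 0.06. These were ITGA2, the collagen receptor subunit to which pro-MMP1 binds (-0.77, SE 0.06, limma adjusted p = 0.0116), and CDH1, the E-cadherin gene, whose protein stromelysin and matrilysin can shed (-0.95, SE 0.07, limma adjusted p = 0.00954). By the root mean square difference of the log2 profiles over the 6 arrays, each taken from its own vector mean, the genes most like MMP1 were CDH1 (0.24), the RNA helicase gene DDX1 (0.33) and LGALS4, a galectin of digestive epithelium (0.34). This distance takes in the size of the change, and the same genes had the most negative changes after MMP1 (ranks 2, 3 and 4). It therefore shows no likeness apart from that size. DDX1 and LGALS4 had changes of -0.85 and -0.82 (limma adjusted p = 0.02698 and 0.00954). Of these 5 genes, none passed without vector replicate 2, knockdown replicate 1 or knockdown replicate 3 (adjusted p = 0.0663 to 0.188). Without vector replicate 1 only CDH1, and without knockdown replicate 2 all except ITGA2 and TGFBR2, passed (adjusted p of the others from 0.0749 to 0.155).

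**Figure D4:**
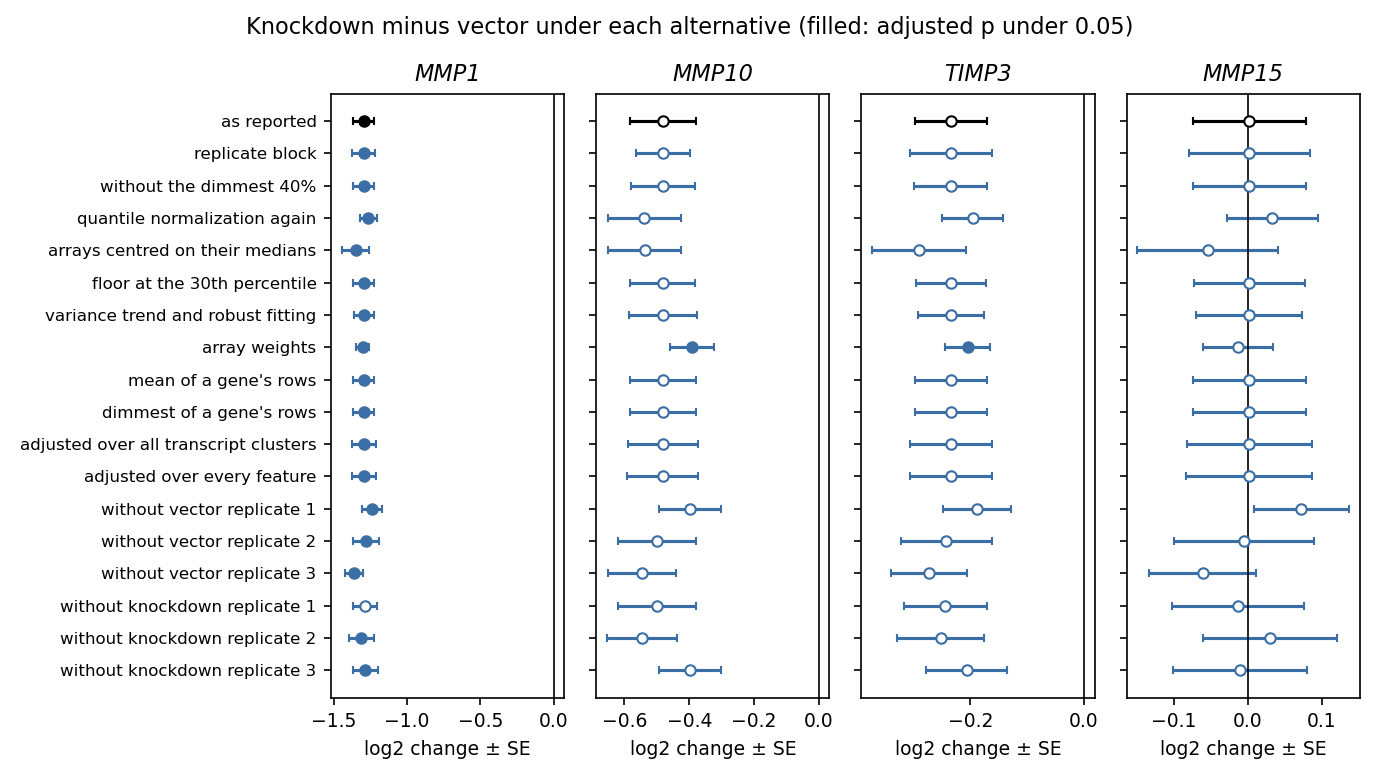
Log2 change, knockdown minus vector, with its SE for 4 members under the reported fit (black) and each alternative (blue), with horizontal axes that differ between panels. MMP1 stayed between -1.36 and -1.24 and missed the threshold without knockdown replicate 1, MMP10 and TIMP3 passed with array weights alone, and MMP15 lay on both sides of 0.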

How the data were processed

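The deposited log2 values were made with RMA (robust multi-array average: background correction, quantile normalization and probe summarisation), per the submitters' processing notes, with no version or settings stated. Of 70523 features, 2995 that are not transcript clusters were dropped. Clusters with 1 annotated symbol (23781) gave 22465 named genes, taking the brightest of several. Sample titles gave group and replicate number. Knockdown minus vector was fitted over all named genes in limma 3.58.1 (R 4.3.3; lmFit, then eBayes) on group alone, and p-values were Benjamini-Hochberg adjusted (threshold 0.05). Intervals are limma's. The members, gene lists and markers were chosen with earlier results of these data known. Named were all members, the rest of the family, per other list the genes past the threshold or else the 2 with the smallest p, the genes around the chromosome 11 cluster and the 3 most like MMP1. The markers ALB, AFP, APOA1, APOA2, SERPINA1, CDX1, TFF3, LUM, FAP, ACTA2, COL1A1, PTPRC and CD68 were picked from their lists with their values seen. Protein sequences were not used here. No 2 arrays held the same values. The fit was tested on simulated data with independent noise of equal size on all arrays, with changes added only above the median level. That test therefore does not cover the differences between these arrays. Alternatives are given in the closing section. The 3 arrays per group limit the precision.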

Additional observations from a re-analysis of the deposited data

How the results depend on the processing

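Over 17 alternatives, the change of MMP1 was negative in 17 and past the threshold in 16, from -1.36 to -1.24 with limma adjusted p from 7.79e-05 to 0.0678. MMP10 stayed between -0.55 and -0.39 and TIMP3 between -0.29 and -0.19, each past the threshold in 1 of 17, with array weights (adjusted p = 0.0157 and 0.0208). Among the 9 members 3 then passed, and 0 to 1 passed with 1 array left out. MMP15 reversed to -0.054 with arrays centred and to -0.014 with array weights, and ranged from -0.061 to 0.072 with 1 array left out, as MMP7 ranged from -0.047 to 0.034. The number of named genes past the threshold moved from 38 to 119 without the dimmest 40% of clusters, 61 with quantile normalization run again, 15 with arrays centred, 133 with a variance trend and robust fitting, 3212 with array weights, 3 with adjustment over all transcript clusters and 2 over every feature. With 1 array left out it was 0 to 35. The 0 calls, without knockdown replicate 1, stood beside 1261 lower and 1047 higher genes at an unadjusted limma p under 0.05. Centring gave 14 lower and 1 higher, against 31 and 7. The array weights ran from 0.449 to 7.77, their estimation stopped before it converged, and the cause of the other moves was not tested. With the replicate number as a block, a fit in which MMP1 passed, 1 named gene was called. Same-numbered arrays had deviations from their group means correlated at -0.30, 0.00 and -0.39, and differently numbered ones at -0.19 to 0.44. Deviations of 3 arrays from their own mean are not independent, so these values cannot decide whether the numbers mark a pairing. The filter on dim clusters left 6 members and the floor at the 30th percentile 7, so MMP7 and MMP13 have no value under either and MMP3 none under the filter.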

Other observations

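MMP8, the neutrophil collagenase gene of the same chromosome 11 cluster, was listed at the same log2 signal, 1.77, on all 6 arrays. Of the 22465 named genes, 7 had a single value on all arrays, so no change can be read for MMP8.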
